A study of Mus musculus with 12 samples.

Results

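The thrombospondin genes Thbs1, Thbs2, Thbs3 and Thbs4 were described in ventricles of mouse embryos at E15.5. They are 4 of the 38293 genes in the expression table, and all 4 were found in it and passed the filter on low counts that left 13964 genes for testing. The family was chosen by results of these same data, in which Thbs1 was among the genes that were higher in the Mib1 mutant than in its control. Values from that comparison are therefore given for the 4 genes as a description, without p-values, and nothing is supported with them. Comp, the fifth thrombospondin, was not chosen and stands beside them.

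Thrombospondins are calcium-binding glycoproteins that cells secrete into the extracellular matrix, where they bind collagens, proteases, growth factors and cell surface receptors without being structural fibres themselves. Thbs1 and Thbs2 assemble into trimers and carry type 1 repeats, the part of the protein through which both bind the receptor CD36 and through which Thbs1 activates latent TGF-β. Thbs3, Thbs4 and Comp assemble into pentamers and lack these repeats. In the heart the family is best known from injury and pressure load, and inside cardiomyocytes Thbs4 binds ATF6, a sensor of stress in the endoplasmic reticulum.

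Polyadenylated RNA was sequenced from 12 libraries, 3 per genotype, each a pool of 4 pairs of ventricles. The WT group carried no introduced allele that the labels name. The triple heterozygote was Mib1_R530X/+; Asxl3_M1415V/+; Apcdd_V150I/+ in the sample labels, while the text on the design writes the Asxl3 change as M1361V. The Cre control was Mib1_flox/+; Tnnt2-Cre/+, and the Mib1 mutant was Mib1_R530X/Mib1_flox; Tnnt2-Cre/+. Mib1 encodes a ubiquitin ligase that cells presenting Notch ligands need. Tnnt2 drives Cre in cardiomyocytes, so the loxP-flanked allele is recombined there, whereas every cell of the Mib1 mutant and of the triple heterozygote carries the stop allele R530X. The Mib1 mutant and the Cre control share the driver and 1 loxP-flanked allele; the Cre control differs from WT in driver, allele and line together, which cannot be told apart. Whether pools shared litters is not stated.

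Libraries held 10103548 to 22157720 estimated reads in genes, and 1 read was worth 0.0452 to 0.0991 CPM (counts scaled to a common library size with TMM factors). Mib1 averaged 136 ± 9.45 CPM in WT pools, 68.7 ± 9.29 in triple heterozygote pools, 105 ± 3.51 in Cre control pools and 52.2 ± 2.41 in Mib1 mutant pools (SD, n = 3 each), so both genotypes with the stop allele had less of it than their controls. Markers of ventricular cardiomyocytes summed to 38600 to 52000 CPM over the 12 libraries, against 790 to 1310 CPM for atrial markers and 1.86 to 26 CPM for liver markers. In replicate 1 of the Cre control and replicate 1 of the Mib1 mutant, Xist, the RNA that coats the inactive X chromosome, was at 0.387 and 0.095 CPM, against 71.5 to 458 CPM in the other 10 pools. Differences of the 4 members that involve these groups are therefore also given without those 2 pools.

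The 4 genes lie on 4 chromosomes of GRCm38 and share no sequence at the length of a read. Thbs1 (ENSMUSG00000040152) spans 118111876 to 118127133 on the plus strand of chromosome 2 with 6073 exonic bases, and Thbs2 (ENSMUSG00000023885) spans 14665500 to 14694235 on the minus strand of chromosome 17 with 7003. Thbs3 (ENSMUSG00000028047) spans 89215180 to 89226837 on the plus strand of chromosome 3 with 4823 exonic bases, and Thbs4 (ENSMUSG00000021702) spans 92751590 to 92794818 on the minus strand of chromosome 13 with 3289. Of all windows of 60 bases in their transcripts, 0 were found in the transcripts of another member. A window was shared with another gene in 94 of 6012 for Thbs1 (1.56%) and 162 of 5209 for Thbs3 (3.11%), and in 0 for Thbs2 and Thbs4. The shared windows are antisense: Thbs3 overlaps 318 exonic bases of Mtx1, and Thbs1 overlaps 208 of the noncoding RNA Gm29233. The kit marks strand, but whether the counting used it is not given, so a small part of the reads of these 2 genes could belong to the antisense partner.

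The sequence before the start of the gene is shown for Thbs4, whose level differed most in the Mib1 mutant, and for Thbs2, whose level differed little. Both are taken from RefSeq (GRCm38.p6), as the 250 bases before the annotated start, read 5′ to 3′ along the gene's strand. An entry was matched for 3 of the 4 genes, Thbs2, Thbs3 and Thbs4. Capitals mark every match, on either strand, to 5 short motifs, and no 2 matches overlap. The site of the Notch transcription factor RBPJ was searched as GTGGGAA. The E-box, bound by basic helix-loop-helix factors, was searched as CANNTG, and the GC-box, bound by Sp1, as GGGCGG. The element of the SMAD proteins that act downstream of TGF-β was searched as GTCTG, and the TATA box that positions the polymerase as TATAAA.
Thbs4, chr13:92794819-92795068, minus strand: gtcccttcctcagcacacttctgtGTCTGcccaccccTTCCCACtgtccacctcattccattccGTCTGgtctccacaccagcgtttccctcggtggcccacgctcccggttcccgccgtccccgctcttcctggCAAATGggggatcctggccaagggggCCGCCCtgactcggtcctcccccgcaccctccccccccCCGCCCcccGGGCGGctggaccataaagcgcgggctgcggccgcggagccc
Thbs2, chr17:14694263-14694512, minus strand: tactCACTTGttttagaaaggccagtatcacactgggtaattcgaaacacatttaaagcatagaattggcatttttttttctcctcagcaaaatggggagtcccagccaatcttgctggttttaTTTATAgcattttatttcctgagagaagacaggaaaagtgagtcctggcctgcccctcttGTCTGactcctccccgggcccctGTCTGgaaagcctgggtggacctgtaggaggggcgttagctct
The window of Thbs4 was 70.8% G and C and that of Thbs2 46.8%, beside a median of 52.4% over 32851 promoters. Thbs4 held 3 GC-boxes, which 32.7% of all promoters hold at least once, and Thbs2 held 0. Thbs2 held the TATA box, which 12.4% of promoters hold, and Thbs4 did not. The RBPJ letters occurred once in Thbs4 and not in the windows of Thbs2 or Thbs3; 5.42% of promoters hold them. Each of the 3 held 1 E-box (66.2% of promoters hold one). The SMAD letters occurred 2 times each in Thbs4 and Thbs2 and 0 times in Thbs3, and 42.2% of promoters hold them. A match shows only that the letters are there.

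Every member was expressed in every library, at levels that differed widely within the family. Compared per length, as CPM divided by the kilobases of exon (RPKM), Thbs4 was the most abundant thrombospondin in all 12 libraries, although its CPM was below that of Thbs2 in each of the 9 libraries outside the Mib1 mutant. In WT the RPKM level averaged 17.8 ± 0.774 for Thbs4, 11.1 ± 1.32 for Thbs2, 8.85 ± 1.56 for Thbs1, 2.36 ± 0.522 for Thbs3 and 0.559 ± 0.106 for Comp (SD, n = 3). The order Thbs4, Thbs2, Thbs1, Thbs3, Comp held within each of the 9 libraries of WT, the triple heterozygote and the Cre control. Between libraries, Thbs2 and Thbs1 were neighbours within their spread in triple heterozygote pools, where Thbs2 lay between 9.54 and 13.2 RPKM and Thbs1 between 7.14 and 9.71. In WT those ranges met at 9.98 and 9.97 RPKM. The other neighbours did not overlap.

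In the 3 Mib1 mutant libraries the order was Thbs4, Thbs1, Thbs2, Thbs3, Comp. Thbs4 averaged 36.1 ± 4.76 RPKM there, Thbs1 15.6 ± 2.61, Thbs2 11.7 ± 0.997, Thbs3 2.95 ± 0.368 and Comp 0.471 ± 0.169 (SD, n = 3). Thbs1 lay between 12.6 and 17.3 RPKM and Thbs2 between 10.5 and 12.4, so the ranges of this pair did not overlap and their order was the opposite of that in the other groups. RPKM assumes that all annotated exons are transcribed, and isoforms were not measured.

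**Figure D1:**
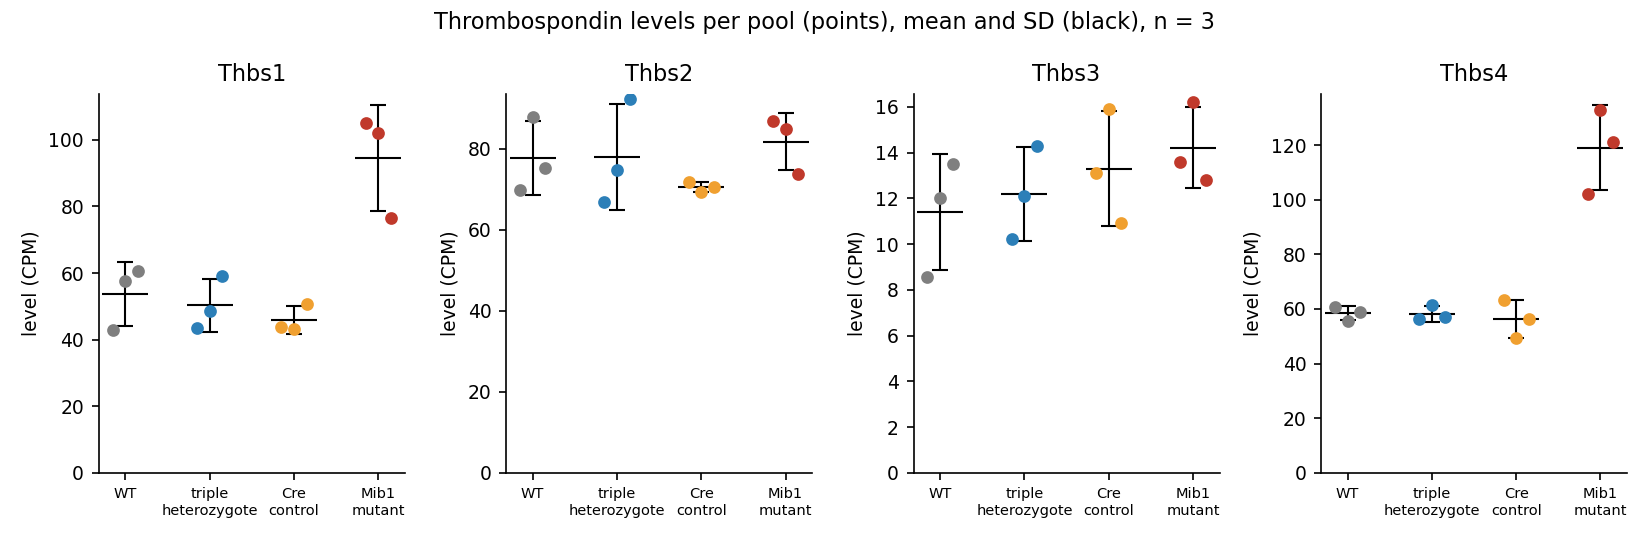
Level of each thrombospondin (CPM, linear axis from 0) in each pool, by genotype; points are pools, the bar is the mean and the whiskers the SD (n = 3). The 3 Mib1 mutant pools lie above all others for Thbs1 and Thbs4; for Thbs2 they lie above the Cre control pools and within the range of the other 2 groups, and for Thbs3 they overlap all groups.

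The first member of the trimeric subgroup, Thbs1, is the one that platelets store and that many cell types make on stimulation. Its CPM was 42.9, 57.7 and 60.6 in the WT pools, 43.4, 48.7 and 59 in triple heterozygote pools, 43.7, 43.3 and 50.7 in Cre control pools and 105, 102 and 76.4 in the Mib1 mutant. The Mib1 mutant pools were thus the highest 3 of the 12, with replicate 3 lower than replicates 1 and 2, and the other 3 groups overlapped one another. The mean of 94.6 ± 15.9 CPM in the Mib1 mutant was 2.06 times the 45.9 ± 4.18 CPM of the Cre control (SD, n = 3 each). The fitted log2 difference was 1.04 (SE 0.15, 95% interval 0.73 to 1.35), and 0.92 without the 2 pools low in Xist.

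Thbs2, the other trimer, binds proteases of the matrix and is made by fibroblasts. Its CPM was 69.9, 87.8 and 75.3 in WT pools, 66.8, 74.8 and 92.3 in triple heterozygote pools, 71.9, 69.3 and 70.6 in Cre control pools and 86.8, 84.8 and 73.9 in the Mib1 mutant. All 3 Mib1 mutant pools were above all 3 Cre control pools, but within the range of WT and the triple heterozygote. The Cre control pools were close to each other (SD 1.32 CPM, against 6.98 to 13.1 CPM in the other groups). The log2 difference between Mib1 mutant and Cre control was 0.21 (SE 0.11, 95% interval -0.03 to 0.45), and 0.18 without the 2 pools low in Xist.

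Thbs3 was the least abundant of the 4, with 99 to 268 reads per library. Its CPM was 8.58, 12 and 13.5 in WT pools, 10.2, 12.1 and 14.3 in triple heterozygote pools, 13.1, 15.9 and 10.9 in Cre control pools and 13.6, 16.2 and 12.8 in the Mib1 mutant. All 4 groups overlapped. The log2 difference between Mib1 mutant and Cre control was 0.10 (SE 0.18, 95% interval -0.29 to 0.49), and 0.12 without the 2 pools low in Xist; the interval still allows a change of the size seen for Thbs2.

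Thbs4, a pentamer of tendon, muscle and heart, lay between 49.2 and 63.2 CPM in all 9 pools outside the Mib1 mutant. Its CPM was 60.8, 55.7 and 59 in WT pools, 56.2, 61.6 and 57.1 in triple heterozygote pools, 63.2, 49.2 and 56.3 in Cre control pools and 102, 133 and 121 in the Mib1 mutant. The lowest Mib1 mutant pool was therefore well above the highest of the other 9. The mean of 119 ± 15.6 CPM was 2.11 times the 56.2 ± 7.02 CPM of the Cre control (SD, n = 3 each), and the log2 difference was 1.08 (SE 0.10, 95% interval 0.86 to 1.30). It was 1.26 without the 2 pools low in Xist.

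Comp, the pentamer of cartilage, was near the limit of detection with 9 to 58 reads per library. It averaged 1.66 ± 0.314 CPM in WT pools, 2.05 ± 0.585 in triple heterozygote pools, 2.11 ± 0.189 in Cre control pools and 1.4 ± 0.501 in Mib1 mutant pools (SD, n = 3 each). The log2 difference between Mib1 mutant and Cre control was -0.58 (SE 0.33, 95% interval -1.28 to 0.12).

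Of the 4 members, 2 passed the edgeR quasi-likelihood test as higher in the Mib1 mutant, Thbs1 and Thbs4, at a Benjamini-Hochberg adjusted p under 0.05; the share over all 13964 genes was 0.909%. For 3 of the 4, Thbs1, Thbs2 and Thbs4, the Mib1 mutant pools were all above the Cre control pools, which held for 8.86% of all genes. Both counts come from the comparison that chose the family, so nothing is read from them.

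**Figure D2:**
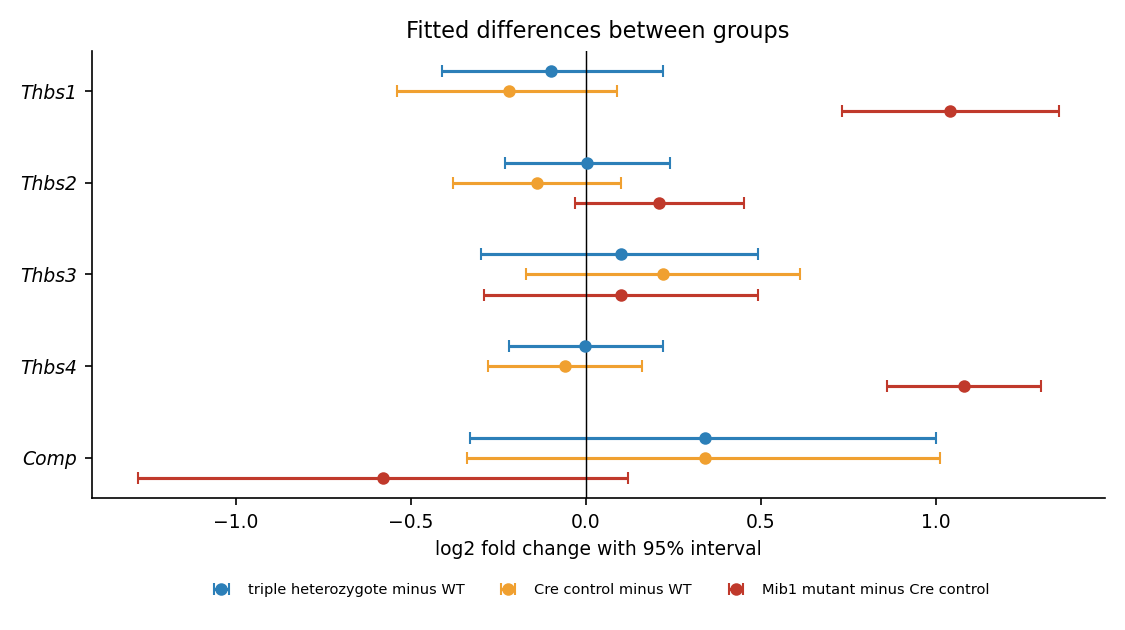
Fitted log2 fold change of each thrombospondin (points) with its 95% interval (bars) in the 3 pairwise comparisons of groups; the vertical line marks no difference. Thbs1 (1.04) and Thbs4 (1.08) lie near 1 in Mib1 mutant minus Cre control, and the intervals of the other 2 comparisons span 0 for all 5 genes.

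The make-up of the family followed from these levels. The RPKM of Thbs1 to Thbs4 summed to 40.1 ± 2.42 in WT pools, 39.7 ± 3.66 in triple heterozygote pools, 37.5 ± 2.07 in Cre control pools and 66.3 ± 5.56 in Mib1 mutant pools (SD, n = 3 each). Thbs4 made up 44% of the summed RPKM of all 5 genes in WT pools, 44.1% in triple heterozygote pools, 44.6% in Cre control pools and 54% in the Mib1 mutant. The share of Thbs1 was 21.7%, 20.4%, 19.8% and 23.3% in the same order of groups. The share of Thbs2 was 27.2%, 27.4%, 26.4% and 17.5%, while its own RPKM level averaged 10.1 to 11.7 in the 4 groups. Within pools the ratio of Thbs1 to Thbs2 per length ranged from 0.701 to 0.928 in the 9 libraries outside the Mib1 mutant and from 1.19 to 1.4 in the 3 inside it.

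**Figure D3:**
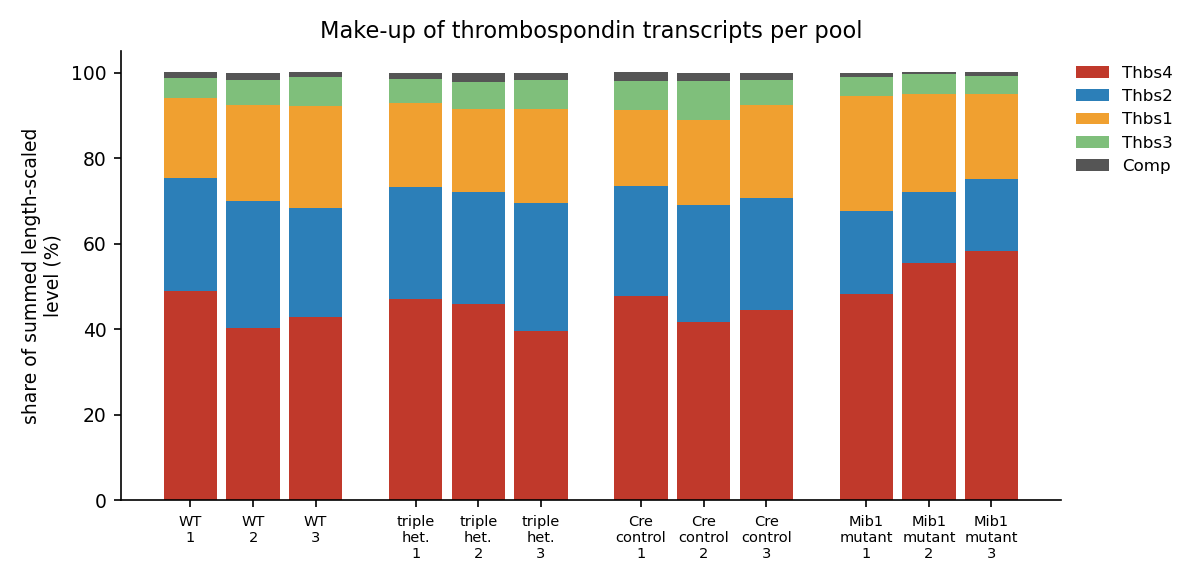
Share of each thrombospondin in the summed RPKM of the 5 genes (stacked bars, percent, 0 to 100) in each pool, by genotype and replicate number. Thbs4 is the largest share in every pool, and the share of Thbs2 lies between 16.6% and 19.3% in the Mib1 mutant against at least 25.6% in every other pool.

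The comparison of the triple heterozygote with WT shares no library with the one that chose the family, so the members were tested in it. Each genotype with the stop allele had lower Mib1 than its own control. The log2 difference was -0.99 (SE 0.09) here and -1.01 (SE 0.09) in the Mib1 mutant, with edgeR adjusted p of 0.000276 and 4.75e-05. The baselines differed, as Mib1 averaged 105 CPM in the Cre control and 136 CPM in WT (log2 difference -0.37, SE 0.09, edgeR adjusted p 0.15). The Mib1 mutant averaged 52.2 CPM and the triple heterozygote 68.7 CPM, so the comparisons are not matched in Mib1 level. In triple heterozygote minus WT, none of the 4 thrombospondins differed by the test, and all 4 overlapped between these groups. Thbs1 averaged 50.3 ± 7.92 CPM in the triple heterozygote and 53.7 ± 9.48 in WT (SD, n = 3 each), a log2 difference of -0.10 (SE 0.15, 95% interval -0.41 to 0.22, edgeR adjusted p 0.856). Thbs4 averaged 58.3 ± 2.94 and 58.5 ± 2.55 CPM, a difference of -0.002 (SE 0.10, 95% interval -0.22 to 0.22, edgeR adjusted p 0.997). The upper bound for both was 0.22. The differences near 1 of the Mib1 mutant come from the comparison that chose the family, so no conclusion is drawn from setting them beside this bound. Thbs2 differed by 0.003 (95% interval -0.23 to 0.24, edgeR adjusted p 0.997) and Thbs3 by 0.10 (95% interval -0.30 to 0.49, edgeR adjusted p 0.895). The count of 0 of 4 was also found at an unadjusted p under 0.05, with DESeq2 and with limma-voom. Over all 13964 tested genes, 1209 had an unadjusted p under 0.05 in either direction. By adjusted p 0.0215% passed the edgeR test in either direction, and 16.9% did not overlap between these groups.

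Between the control groups, which share the 3 Cre control libraries with the first comparison, the members did not pass the test either. The log2 difference of Cre control minus WT was -0.22 for Thbs1 (SE 0.15, 95% interval -0.54 to 0.09, edgeR adjusted p 0.711) and -0.06 for Thbs4 (SE 0.10, 95% interval -0.28 to 0.16, edgeR adjusted p 0.907). It was -0.14 for Thbs2 and 0.22 for Thbs3, with edgeR adjusted p of 0.777 and 0.784. Without the 2 pools low in Xist the differences were -0.18 for Thbs1, -0.14 for Thbs2, 0.23 for Thbs3 and -0.14 for Thbs4, and none passed the edgeR test (adjusted p 0.608 to 0.737). The count was again 0 of 4 by edgeR, at an unadjusted p under 0.05, with DESeq2 and with limma-voom, and all 4 overlapped. Over all 13964 tested genes, 1177 had an unadjusted p under 0.05 in either direction. By adjusted p 0.279% passed the edgeR test in either direction, and 19.1% did not overlap. The highest WT pool held 60.6 CPM of Thbs1 and 60.8 of Thbs4, and the lowest Mib1 mutant pools held 76.4 and 102. The Mib1 mutant pools took part in choosing the family, so these values are a description and nothing is read from them.

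The difference between the effects, Mib1 mutant minus Cre control less triple heterozygote minus WT, was 1.14 (SE 0.21) for Thbs1, 0.21 (SE 0.16) for Thbs2, 0.004 (SE 0.26) for Thbs3 and 1.08 (SE 0.15) for Thbs4 on the log2 scale. It holds the comparison that chose the family and is given as a description. Without the 2 pools low in Xist it was 1.0, 0.16, 0.01 and 1.25 in the same order of genes. Over all genes 0.322% passed the edgeR test for this difference as higher.

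Genes linked to thrombospondins by binding, domain or pathway were examined in 8 lists. They were drawn up with earlier results of these data known, and their counts are set beside the share of all genes that passed the edgeR test in Mib1 mutant minus Cre control, 0.909% higher and 0.594% lower, and beside the median log2 difference of all tested genes, 0.005. In the triple heterozygote against WT, 0 genes of any of the 8 lists passed the edgeR test in either direction. Over all 13964 tested genes, 1209 had an unadjusted p under 0.05 in triple heterozygote minus WT, in either direction. In Mib1 mutant minus Cre control 1954 did, which is the background for the unadjusted counts below. At this threshold the lists held 1 to 3 higher and 0 to 4 lower genes each in triple heterozygote minus WT. limma-voom called 0 of their members, and DESeq2 called 1 lower gene each among receptors and matrix genes.

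Of 16 tested receptors and surface partners of thrombospondins, 0 rose and 1 fell in the Mib1 mutant. The one that fell was Cd36, the scavenger receptor that binds the type 1 repeats of Thbs1 and Thbs2. It held 411, 390 and 373 CPM in Cre control pools and 332, 263 and 255 in the Mib1 mutant, with no overlap. The log2 difference was -0.47 (SE 0.10, edgeR adjusted p 0.0289). Leaving out any 1 pool of these groups other than Mib1 mutant replicate 1 ended the call, at edgeR adjusted p of 0.0569 to 0.117. Cd47, the receptor of the carboxyl end of Thbs1, differed by 0.10 (SE 0.08, edgeR adjusted p 0.648), and the endocytic receptor Lrp1 by 0.35 (SE 0.13, edgeR adjusted p 0.243). In the triple heterozygote, the other genotype with the stop allele, Cd36 averaged 333 CPM against 455 CPM in WT, a log2 difference of -0.45 (SE 0.10) that did not pass (edgeR adjusted p 0.326). The difference between these effects was -0.01 (SE 0.14, edgeR adjusted p 0.976). The median of the list was 0.07. At an unadjusted p under 0.05, 6 receptors were higher; DESeq2 called 3 of the list higher and limma-voom 1.

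Genes that respond to TGF-β, the growth factor that Thbs1 activates from its latent form, had a median of 0.32, and all 14 tested had positive values. Of these 14, 4 rose in the Mib1 mutant and 0 fell. Tagln, an actin-binding protein of smooth muscle, was at 28.2, 27.1 and 28.7 CPM in Cre control pools and 53.5, 93 and 70.2 in the Mib1 mutant, a log2 difference of 1.37 (SE 0.15, edgeR adjusted p 0.000179). The lowest Mib1 mutant pool was above the highest Cre control pool. Tgfbi, a matrix adaptor protein, rose by 0.62 (SE 0.11), Ccn2, a matricellular growth factor modulator, by 0.65 (SE 0.14) and Pmepa1, a feedback inhibitor of the SMAD pathway, by 0.50 (SE 0.09), at edgeR adjusted p of 0.00626, 0.0267 and 0.00794. Without the 2 pools low in Xist, 2 of 14 passed as higher, and so did 2 in a fit of the 6 libraries alone. Of the named genes, Tgfbi, Pmepa1 and Ccn2 did not pass without the 2 pools low in Xist (edgeR adjusted p 0.109, 0.137 and 0.0595). Their log2 differences there were 0.55, 0.42 and 0.75. In the fit of the 6 libraries Pmepa1 and Ccn2 did not pass (edgeR adjusted p 0.0565 and 0.112). Of the ligands, latency proteins and receptors of TGF-β themselves, 0 of 13 passed, with a median of 0.18; 5 were higher at an unadjusted p under 0.05, DESeq2 called 3 and limma-voom 0. Tgfb1 differed by -0.02, Tgfb2 by 0.23 and Tgfb3 by 0.42, with edgeR adjusted p of 0.969, 0.329 and 0.0596.

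Other matricellular proteins, secreted modulators of the same kind as thrombospondins, went in both directions: 2 of 15 rose and 1 fell. Tnc, which encodes tenascin-C, rose from 53.4 ± 4.88 to 103 ± 5.65 CPM (SD, n = 3 each; log2 difference 0.95, SE 0.11, edgeR adjusted p 0.000251). Ccn2 was the other. Spp1, which encodes osteopontin and is also made by macrophages, fell from 39.9 ± 5.51 to 8.65 ± 3.18 CPM (log2 difference -2.22, SE 0.34, edgeR adjusted p 0.00298). Leukocyte markers were lower as well, by the sums given below. The median of the list was 0.23. With replicate 1 or replicate 3 of the Cre control left out, or both pools low in Xist, 1 passed as higher.

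Among 44 other genes that encode type 1 repeats, the domain that Thbs1 and Thbs2 have and Thbs3 and Thbs4 lack, 5 rose and 0 fell. Adamtsl2, a secreted relative of the ADAMTS proteases that binds a latent TGF-β binding protein, rose from 10.5 ± 1.81 to 27.8 ± 0.933 CPM (SD, n = 3 each; log2 difference 1.40, SE 0.14, edgeR adjusted p 6.62e-05). The netrin receptor Unc5b rose by 0.61 (SE 0.10), and the matrix proteases Adamts15 and Adamts8 by 0.62 (SE 0.11) and 0.66 (SE 0.14), at edgeR adjusted p of 0.00458, 0.0059 and 0.0244. Ccn2 is the fifth. The median was 0.27, and 3 passed without Cre control replicate 3 and without the 2 pools low in Xist.

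Collagens, other matrix proteins and proteases that thrombospondins bind all had positive values, 20 of 20, with a median of 0.32, but only 2 of them passed. Eln, which encodes elastin, rose from 43.5 ± 6.09 to 115 ± 30 CPM (SD, n = 3 each; log2 difference 1.39, SE 0.25, edgeR adjusted p 0.008), and Loxl2, a cross-linking enzyme of collagen, rose by 0.42 (SE 0.08, edgeR adjusted p 0.0175). Without Cre control replicate 2, and also without the 2 pools low in Xist, 0 of 20 passed, with edgeR adjusted p for Eln of 0.0509 and 0.0615. At an unadjusted p under 0.05, 12 of 20 were higher, beside 1954 of all 13964 tested genes in either direction. DESeq2 called 7 of the list and limma-voom 2. Of the targets of SRF and YAP, transcriptional regulators that respond to tension, 2 of 17 rose, Tagln and Ccn2, and 0 fell, with a median of 0.23. Only 1 passed when replicate 1 or replicate 3 of the Cre control was left out.

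Genes of ATF6, which Thbs4 binds inside cardiomyocytes, and of chaperones and stress responses of the endoplasmic reticulum did not pass the test: 0 of 19, with a median of 0.07. The counts were also 0 at an unadjusted p under 0.05, with DESeq2 and with limma-voom. Atf6 differed by 0.16 (SE 0.16) and its target Hspa5 by 0.01 (SE 0.09), at edgeR adjusted p of 0.727 and 0.968. Between the control groups the only called gene of the 8 lists was Bhlhe40, a transcriptional repressor, at 38.7 ± 1.35 CPM in WT and 58.5 ± 4.37 in the Cre control (SD, n = 3 each; log2 difference 0.60, SE 0.10, edgeR adjusted p 0.0144). That call ended without any 1 of the WT pools or on leaving out Cre control replicate 3, at edgeR adjusted p of 0.0609 to 0.11.

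**Figure D4:**
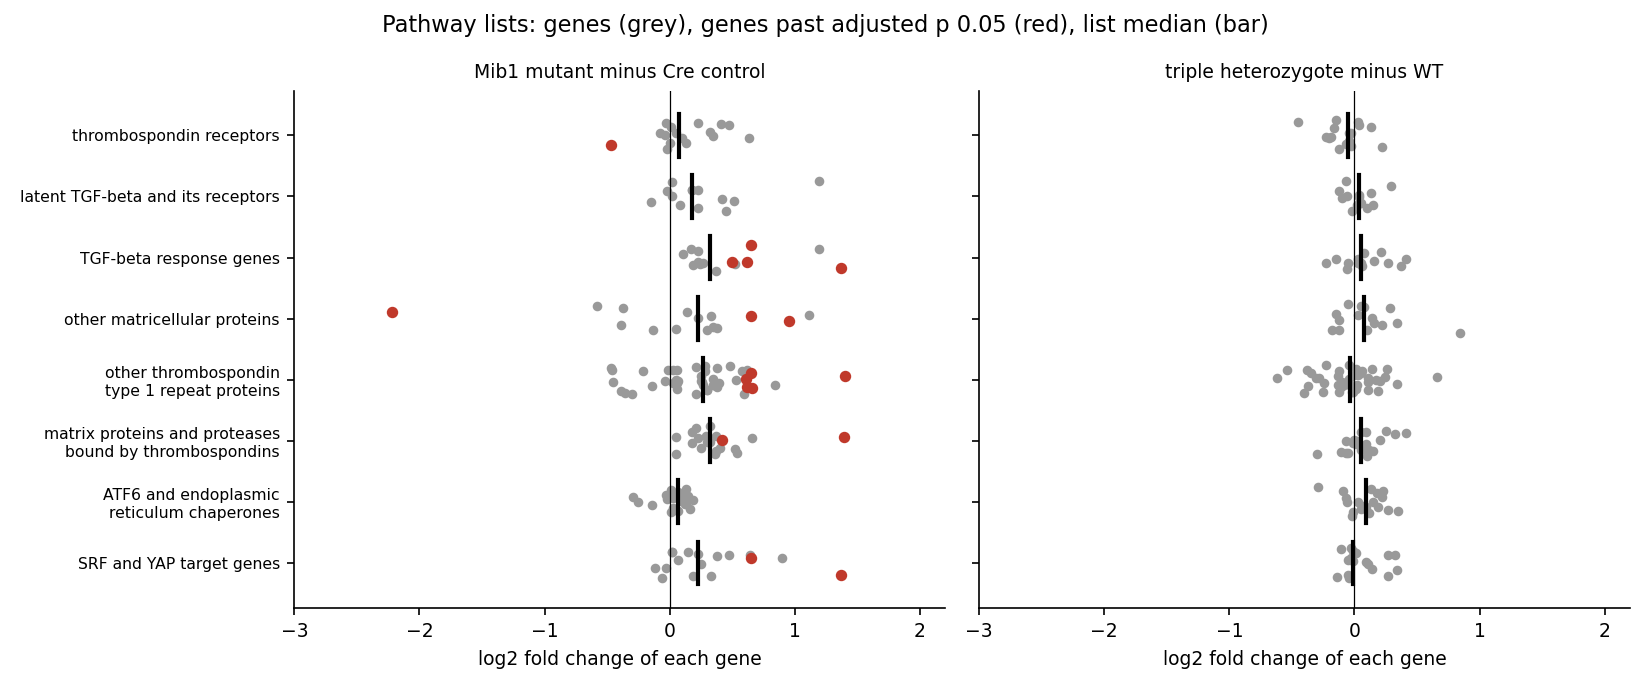
Log2 fold change of each tested gene of the 8 lists (points; red where the edgeR adjusted p is under 0.05) and the median of each list (black bar), in Mib1 mutant minus Cre control (left) and triple heterozygote minus WT (right). The medians on the left run from 0.07 to 0.32, and no point on the right is red.

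Thrombospondin transcripts in bulk tissue come from several cell types, and fewer cells of a type cannot be told apart from less RNA per cell. Summed levels of marker lists were therefore set beside the members. The 9 fibroblast markers summed to 3690 to 3820 CPM in Cre control pools and 4180 to 5030 CPM in the Mib1 mutant, with no overlap; 0 of the 9 passed the test, their median log2 difference was 0.22 and none was at 0 in a group. Of these 9, 5 are also in the list of matrix genes (Col1a1, Col1a2, Col3a1, Dcn and Lum). In the triple heterozygote their sum ranged from 3360 to 5640 CPM and in WT from 3340 to 4210. Markers of epicardium summed to 193 to 204 CPM in Cre control pools and 219 to 248 in the Mib1 mutant (1 of 10 passed as higher), and those of valve and tendon-like mesenchyme to 72.2 to 83.4 and 84.2 to 116 CPM (1 of 9 tested as higher). The smooth muscle and pericyte sum was 2560 to 2670 CPM in Cre control pools and 2380 to 3320 in the Mib1 mutant. Of its 11 genes 1 passed, Tagln, as higher, while 8 had positive and 3 negative values. Myh11, at low levels, went the other way without passing, from 2.42 CPM in the Cre control to 0.934 CPM (log2 difference -1.37, SE 0.44, edgeR adjusted p 0.153).

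The sums of the remaining lists were lower in the Mib1 mutant or overlapped. Ventricular cardiomyocyte markers summed to 46300 to 52000 CPM in Cre control pools and 38600 to 46500 in the Mib1 mutant, with 0 of 9 passing. Leukocyte markers summed to 106 to 131 and 73.3 to 101 CPM, with 2 of 12 passing as lower. Atrial markers overlapped, at 976 to 1060 and 790 to 1220 CPM, with 4 positive and 3 negative values and a median log2 difference of 0.03. Of the 7, 1 passed as lower, Bmp10, a growth factor of trabecular cardiomyocytes. It was at 27.9 ± 8.62 CPM in the Cre control against 4.51 ± 1.89 in the Mib1 mutant (SD, n = 3 each, log2 difference -2.62, SE 0.30, edgeR adjusted p 0.000273). Erythroid genes summed to 4720 to 5390 and 3780 to 5110 CPM, with 1 of 18 passing as lower, Ank1 of the red cell skeleton (log2 difference -0.63, SE 0.11, edgeR adjusted p 0.00755). They summed to 7420 to 8650 CPM in the triple heterozygote and 4660 to 5440 in WT, with 2 of 18 passing as higher. In the difference between effects 5 of 18 passed as lower. The share of all genes lower in that difference is not given here, so nothing is read from this count. Endothelial markers overlapped, at 1110 to 1260 and 1120 to 1320 CPM. Megakaryocyte and platelet markers, of interest because platelets store Thbs1 protein, summed to only 6.96 to 13.3 CPM in Cre control pools and 7.03 to 7.74 in the Mib1 mutant, where Gp6 was at 0; 4 of these 10 markers were tested and 0 passed. Immediate early genes, which tissue handling can induce, summed to 403 to 451 and 430 to 551 CPM, with 0 of 16 passing by edgeR, 2 higher at an unadjusted p under 0.05, and 0 by DESeq2 or limma-voom. The part of these differences in the thrombospondin levels was not tested.

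The spread between pools of 1 genotype was set beside the marker sums. Over the deviations of all 12 libraries from their group means, Pearson's r of the fibroblast sum was 0.75 with Thbs1, 0.93 with Thbs2, 0.65 with Thbs3 and 0.07 with Thbs4. Collagens make up most of that sum. In the Cre control Col1a1, Col1a2 and Col3a1 averaged 1080, 822 and 1420 CPM, beside a median sum of 3810 CPM. The r values thus mainly describe collagen transcripts and are no measure of the number of fibroblasts. Triple heterozygote replicate 3 held the highest fibroblast sum of all pools (5640 CPM) and the highest Thbs1, Thbs2 and Thbs3 of its group. The sum was lowest in WT replicate 1 (3340 CPM) and triple heterozygote replicate 1 (3360 CPM), which held the lowest Thbs1, Thbs2 and Thbs3 of theirs. In the Cre control Thbs3 did not follow: replicate 2, with the lowest fibroblast sum of that group (3690 CPM), held its highest Thbs3 (15.9 CPM). In WT the sum was highest in replicate 2 (4210 CPM), but Thbs1 and Thbs3 were highest in replicate 3 (60.6 and 13.5 CPM). In the Mib1 mutant the sum was highest in replicate 2 (5030 CPM), but Thbs1 and Thbs2 were highest in replicate 1 (105 and 86.8 CPM). The epicardium sum gave r of 0.63, 0.92, 0.64 and -0.13 with Thbs1 to Thbs4, and the valve and tendon-like sum 0.51, 0.57, 0.74 and 0.17. Thbs4 had its highest r with the atrial sum (0.72) and the smooth muscle sum (0.70) in the same deviations. Mib1 mutant replicate 1 was the lowest of its group for Thbs4 (102 CPM) and for both sums (790 and 2380 CPM). The immediate early sum gave r of 0.53, 0.33, 0.28 and -0.65 with Thbs1 to Thbs4, and the leukocyte sum 0.55, 0.55, -0.07 and -0.39. These r values are descriptions over 12 libraries that share their scaling.

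**Figure D5:**
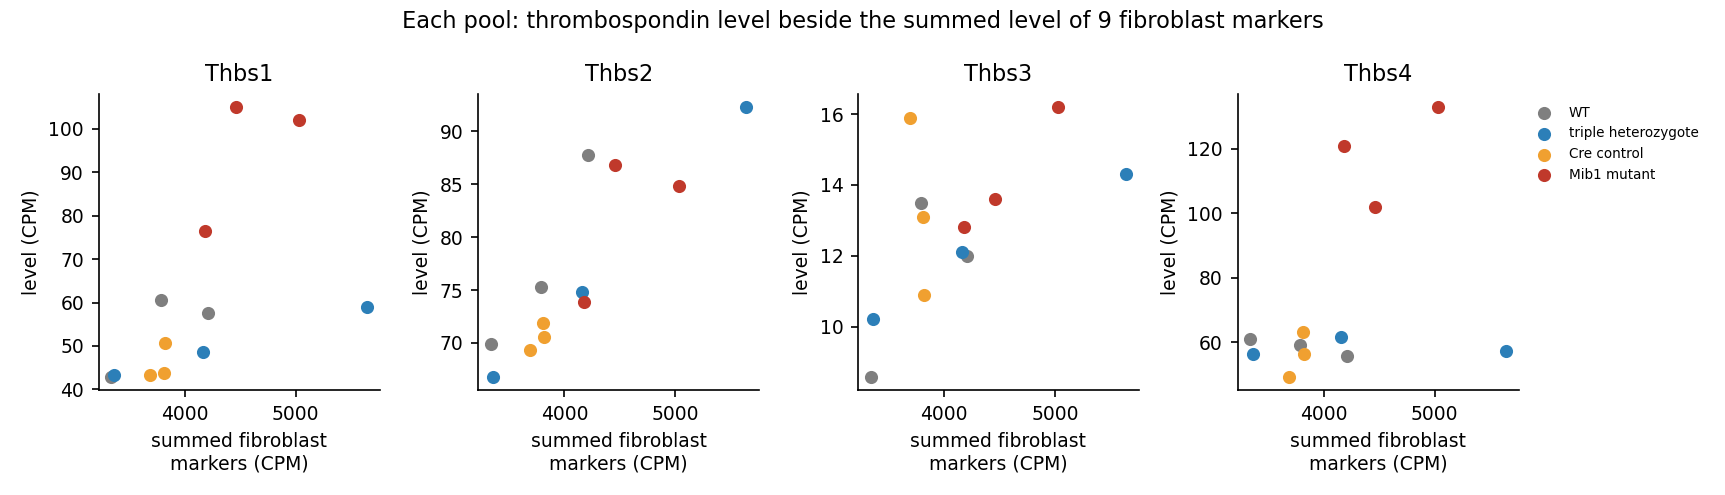
Level of each thrombospondin (CPM) against the summed level of 9 fibroblast markers (CPM) in each of the 12 pools, coloured by genotype; axes do not start at 0. The triple heterozygote pool at 5640 CPM of fibroblast markers has the highest Thbs2 (92.3 CPM), and the 3 Mib1 mutant pools (4180 to 5030 CPM) have the highest Thbs1 and Thbs4.

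The members also differed in which of them moved together. Thbs1 and Thbs4 had the highest correlation of any pair over the 12 libraries (Pearson's r 0.86 of log2 CPM), which includes the difference of the Mib1 mutant from the rest. In the deviations from group means their r was -0.17. Thbs1 and Thbs2 had r 0.66 over libraries and 0.80 within groups. Thbs3 had r 0.59 with Thbs1 and 0.58 with Thbs2 within groups, and Thbs4 had r -0.15 with Thbs2 and -0.11 with Thbs3.

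The genes most like each member were taken as the 3 with the highest r of log2 CPM over the 12 libraries among 11589 genes. For Thbs1 they were Pmepa1 (r 0.963, and 0.896 within groups), Anxa5 (r 0.956, and 0.76 within groups) and Fstl1 (r 0.95, and 0.664 within groups). Pmepa1 is in the list of TGF-β response genes above. For Thbs4 they were Adamts15 (r 0.963, and 0.554 within groups), Plekha6 (r 0.962, and 0.306 within groups) and Fstl3 (r 0.959, and 0.622 within groups). Fstl3, which encodes a secreted antagonist of activins, averaged 13.5 ± 1.24 CPM in Cre control pools and 26.6 ± 3.67 in the Mib1 mutant. Plekha6 averaged 50.5 ± 3.59 and 94.7 ± 3.38 CPM (SD, n = 3 each). The r over libraries includes the difference of the Mib1 mutant from the rest. Higher levels of these genes there thus follow from how they were picked and are no separate result.

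The nearest genes of the other pair had flatter profiles. For Thbs2 they were the fibrillar collagen Col3a1 (r 0.907, and 0.942 within groups), the chromatin remodeller Smarca2 (r 0.904) and Tmem119 (r 0.897). Col3a1 is 1 of the 9 fibroblast markers; it averaged 1500 ± 142 CPM in WT pools, 1550 ± 326 in triple heterozygote pools, 1420 ± 65.1 in Cre control pools and 1780 ± 81.3 in Mib1 mutant pools (SD, n = 3 each). For Thbs3 they were Tmem203 (r 0.888), Lysmd2 (r 0.851) and Glt8d1 (r 0.851), and none of these averaged over 33.9 CPM in any group. The top r for Thbs3 was the lowest of the 4 members, and its biological coefficient of variation, 0.146, was the highest, against 0.123 for Thbs1, 0.0942 for Thbs2 and 0.0864 for Thbs4.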

How the data were processed

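Polyadenylated RNA of 12 pools went into a directional kit and was read as single ends of 60 bases, per the labels' protocols. The values are expected counts that the authors deposited as made by RSEM, not scaled for depth. Tools in the submitters' processing notes are RSEM, cutadapt, limma and bcl2fastq (2.20.0.422), with the build GRCm38. Aligner, annotation release and strand setting: not given in the sources used here. Of the values, 9.64% were not whole; those of the 4 members were whole in every library. Columns were matched to samples by allele names; that the columns called mutant are the triple heterozygote is an inference from those names. All columns were used. GENCODE M21 gave symbols and exonic lengths for 36429 of 38293 identifiers.

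Counts were rounded and fitted in 1 edgeR 4.0.16 model (R 4.3.3; quasi-likelihood F test, two-sided, TMM, filterByExpr, 13964 genes with 99.9% of counts, 8 residual degrees of freedom), with Benjamini-Hochberg adjustment over all genes at 0.05. The SE is the log2 difference divided by the square root of F. RPKM is the scaled CPM per kilobase of merged exons, computed here; log2 CPM for correlations used a prior count of 2. The procedure was tested on simulated data. Pools are the replicates, and p-values measure the spread between pools.

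The members and lists were chosen with earlier results of these data known. A gene of the list of TGF-β response genes is not reported here and is left out of that list's counts. Named genes are the members and Comp, Mib1, Asxl3 and Apcdd1, up to 4 called genes per list and comparison by smallest p, and the 3 genes most like each member with a mean of at least 2 CPM. Cd47, Lrp1, the TGF-β ligands, Atf6 and Hspa5 were named for their roles after the values were seen, as were Bmp10 and Ank1 for their marker lists and Ccn2 where it is the fifth of a list. Asxl3 and Apcdd1 carry missense alleles, and their levels did not pass the test between triple heterozygote and WT (edgeR adjusted p 0.964 and 0.961). As alternatives, erythroid genes were left out, scaling used median-ratio size factors, and 2 other filters were tried, as were limma-voom (limma 3.58.1), DESeq2 1.42.0, only the libraries compared, a replicate block, a covariate for the mix of Y-linked and Xist levels, leaving out both pools low in Xist, and each replicate left out in turn.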

Additional observations from a re-analysis of the deposited data

Results flagged for a closer look

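The effect of the Mib1 mutant genotype on Thbs1 and Thbs4 lay apart from that of the triple heterozygote. The difference between the effects was 1.14 (SE 0.21) on the log2 scale for Thbs1 and 1.08 (SE 0.15) for Thbs4. Both values contain the comparison that chose the family, which favours a large difference beforehand, so they are descriptions and support nothing. They ranged from 1.0 to 1.27 for Thbs1 and from 0.99 to 1.25 for Thbs4 over 21 alternatives, with the lowest value for Thbs1 without both pools low in Xist. The groups also differ in line, driver, the loxP-flanked allele and the Asxl3 and Apcdd1 alleles that only the triple heterozygote carries. In addition, the stop allele lay over + in the triple heterozygote and over the loxP-flanked allele in the Mib1 mutant. None of these can be told apart here.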

How the results depend on the processing

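In Mib1 mutant minus Cre control, Thbs1 stayed at 0.92 to 1.17 and Thbs4 at 0.99 to 1.26 over 16 alternatives, as a description of the comparison that chose the family. Thbs3 changed sign there when single replicates were left out (-0.04 to 0.25). In triple heterozygote minus WT, the values near 0 changed sign: Thbs2 to -0.005 with limma-voom and -0.13 to 0.10 leaving out replicates, Thbs3 to -0.07 to 0.24 leaving out replicates, and Thbs4 to 0.002 with median-ratio size factors and DESeq2, 0.01 with no filter, a filter at a mean CPM of 2, only the libraries compared and without both pools low in Xist, and -0.05 to 0.03 leaving out replicates. In Cre control minus WT, Thbs4 ranged from -0.15 to 0.03 leaving out replicates. For the difference between effects, Thbs3 was -0.005 with median-ratio size factors, -0.02 with no filter, -0.01 with the filter at a mean CPM of 2, -0.006 with DESeq2, -0.008 with the sex-mix covariate and -0.14 to 0.17 leaving out replicates. Thbs1 was 1.0 without both pools low in Xist and 1.04 to 1.27 leaving out replicates.

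Counts of called genes moved more, and the cause was not tested. Mib1 mutant minus Cre control had 210 by edgeR, 476 with no filter, 417 with DESeq2, 93 with only the libraries compared, 110 without both pools low in Xist and 116 to 415 leaving out replicates. Triple heterozygote minus WT had 3, with 1 without erythroid genes, 54 with no filter, 28 with DESeq2, 10 with only the libraries compared, 5 with the sex-mix covariate, 7 without both pools low in Xist and 1 to 3 leaving out replicates. Cre control minus WT had 39, with 144, 82 and 68 for no filter, DESeq2 and only the libraries compared, and 23 to 42 leaving out replicates. The difference between effects had 72, with 246 for no filter, 167 for DESeq2, 41 without both pools low in Xist and 28 to 233 leaving out replicates.

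With the replicate number as a block the counts were 318, 3, 59 and 109 in the same order of comparisons, and no member was called in triple heterozygote minus WT or Cre control minus WT. Whether same-numbered pools were paired is not stated, and the correlations cannot settle it. Between Mib1 mutant and Cre control, same-numbered deviations had r of 0.125, 0.166 and 0.014. There 4 of 6 libraries correlated best with their own number, against 2 of 6 in each of the other comparisons. Replicate 1 was the pool low in Xist in both of these groups. Depth limits Thbs3 (99 to 268 reads per library) and Comp (9 to 58) most.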
